A study of Mus musculus with 4 samples.

Results

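The genes described here serve protein folding and secretion in the endoplasmic reticulum. They were taken as a list of 42 gene symbols, of which 35 had a probe named for them on the array, out of 15366 named genes in all. Each gene was read from its brightest probe by mean. The remaining 7 genes, Atf6, Dnajb11, Pdia6, Rpn2, Sdf2l1, Sec61g and Spcs3, had no probe under their symbol and were not analysed here. Of the 35 genes, 32 lay on all arrays above 5.80, the median of all probes, and 1, Trib3, lay below it throughout.

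RNA came from bladders of male mice fed a normal diet. The obstructed group holds 2 arrays from bladders studied 14 days after partial bladder outlet obstruction, a narrowing of the outlet against which the bladder must empty, and the sham group holds 2 arrays from sham-operated mice. The array titles separate the groups, whereas the treatment field names the obstruction for all 4 arrays. Strain, age and the number of animals behind each array are not stated. The p-values below thus cover only the spread among these 4 arrays, and that may be technical. Bladder was labelled as the source. All 10 smooth muscle markers lay above the median of all probes on all 4 arrays, with the actin Actg2 between 15.30 and 15.63 on the log2 scale. Of 9 urothelial markers 7 did so, with Upk2 between 13.82 and 14.11, while Upk1b and Krt20 lay below it on all 4 arrays. All values below are log2 intensities, and all differences are log2 differences, obstructed minus sham, unless stated otherwise.

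Obstructed replicate 2 stood apart from the other arrays. Across all probes the correlation was 0.969 within the obstructed pair and 0.989 within the sham pair. Secretory genes of the male accessory glands, such as the seminal vesicle proteins Svs4 and Svs5, read far higher in it. All 17 measured of 21 listed genes had a higher mean in obstructed bladders. Above the sham mean lay 15 in obstructed replicate 1, with a median difference of 1.60, and 17 in obstructed replicate 2, with 8.55. Their summed linear intensity was 25364 and 321380 in obstructed replicates 1 and 2, against 8465 and 874 in sham replicates 1 and 2. Svs4 read 8.89 and 15.04 in the obstructed arrays, against 5.35 and 5.62 in the sham arrays. Such glands are dense in endoplasmic reticulum, as background, and the part of gland tissue in the values below was not tested. In whole tissue, a different share of cells of some type and a different amount of RNA per cell cannot be told apart.

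As background, proteins bound for secretion or for membranes enter the endoplasmic reticulum through a channel, the Sec61 translocon, lose their signal peptide, receive sugars and are folded by chaperones and disulfide isomerases. When unfolded proteins gather, the sensors encoded by Ern1 (IRE1), Atf6 and Eif2ak3 (PERK) start the unfolded protein response, in which the transcription factors ATF6, XBP1 and ATF4 raise chaperones, degradation factors and amino acid genes. Prolonged signalling through ATF4 also raises Ddit3, which encodes CHOP.

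The DNA element through which ATF6 and XBP1 act on chaperone genes is the endoplasmic reticulum stress element, ERSE, in which NF-Y binds the CCAAT part and ATF6 the CCACG part. Promoter windows of 300 bases, from 250 before to 50 after the start of transcription, were found in RefSeq (GRCm38.p6) for 30 of the 35 genes and for 12415 of all named genes. The letters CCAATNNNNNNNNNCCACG, searched on both strands, were in the windows of 6 of these 30 genes, against 18 of all 12415 genes, 0.145%. The related ERSE-II, ATTGGNCCACG, was in the window of 1 of the 30, Herpud1, and of 7 of the 12415 genes, 0.0564%. Both motifs were known from genes of this kind beforehand, so these shares describe the list and are no result of these data. No window of these 30 genes held both, although the 2 motifs share the letters CCACG. The UPRE core TGACGTG, bound by XBP1 and ATF6, was found in Hspa5 and Kdelr3 and in 2.79% of all genes, and the amino acid response element TGATGNAAT, bound by ATF4, in 0 of the 30 and in 0.733% of all genes. The stretches holding ERSE or ERSE-II are shown so that the values of these genes can be read beside them. Only exact matches were counted, and genes without a window were not searched, so the other genes may still carry such an element. They run 5′ to 3′ on the strand of the gene and lie before the start, and capitals mark the fixed letters of a motif in either direction.
Hspa5, chr2:34771913-34772063, plus strand, UPRE core and then ERSE: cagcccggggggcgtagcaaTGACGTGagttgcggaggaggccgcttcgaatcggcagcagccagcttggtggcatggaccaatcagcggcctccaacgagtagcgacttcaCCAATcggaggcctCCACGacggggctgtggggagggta
Hsp90b1, chr10:86705513-86705676, minus strand, ERSE in each direction: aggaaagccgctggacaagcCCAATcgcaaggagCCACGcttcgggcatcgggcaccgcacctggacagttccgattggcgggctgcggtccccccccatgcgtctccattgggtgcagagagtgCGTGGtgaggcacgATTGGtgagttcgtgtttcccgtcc
Creld2, chr15:88819500-88819558, plus strand, reversed ERSE: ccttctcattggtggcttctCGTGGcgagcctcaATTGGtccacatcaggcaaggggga
Canx, chr11:50325780-50325838, minus strand, ERSE: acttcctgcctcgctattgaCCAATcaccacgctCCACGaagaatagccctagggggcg
Calr, chr8:84847055-84847113, minus strand, reversed ERSE: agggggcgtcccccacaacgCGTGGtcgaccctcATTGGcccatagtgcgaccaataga
Dnajc3, chr14:118937807-118937865, plus strand, ERSE: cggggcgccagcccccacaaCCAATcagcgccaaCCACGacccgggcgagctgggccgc
Herpud1, chr8:94386357-94386407, plus strand, ERSE-II: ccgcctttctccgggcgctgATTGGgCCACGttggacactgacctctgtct

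Among the 35 genes, both obstructed arrays lay above both sham arrays for all 4 disulfide isomerases and 4 of 7 chaperones and cochaperones. The same held for 2 of 4 translocon genes, 3 of 4 genes of the translocon-associated complex, 2 of 3 stress products and 1 of 3 KDEL receptors. It held for 0 of 4 sensor and transcription factor genes. It also held for 0 of 2 genes in each of the ATF4 and CHOP targets, signal peptidase and oligosaccharyltransferase. Roles were not tested against each other. None of the 35 passed limma with Benjamini-Hochberg adjustment over all genes, a test that called 8 genes or 0.0521% of the array, and the lowest adjusted p among them was 0.334. The mean was higher in 25 of the 35 genes, against 46.9% of all genes. The obstructed arrays both lay above both sham arrays in 16 of the 35, or 45.7%, against 17.6% of all genes, and both lay below in 2, or 5.71%, against 21.6% of all genes. At an unadjusted p below 0.05 in limma, 7 of the 35 were higher, against 3.05% of all genes, and 1 was lower, against 5.09% of all genes. The median difference over the 35 genes was 0.30, against -0.02 over all genes.

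The obstructed arrays, set one by one against the same sham arrays, were unequal. Over the 35 genes, obstructed replicate 1 had a median of 0.13 and obstructed replicate 2 one of 0.40, against -0.00158 and -0.03 over all genes. With obstructed replicate 1 alone, 0 of the 35 passed limma in either direction, where 1.00% of all genes passed as higher and 1.10% as lower. With obstructed replicate 2 alone, 8 of the 35 (22.9%) passed as higher, against 3.38% of all genes, and 0 passed as lower, against 5.08% of all genes. Such a fit takes the spread of a single obstructed array to be that of the sham pair. The 8 genes were Hspa5, Hsp90b1, P4hb, Creld2, Ern1, Sec61b, Sec63 and Ssr4, and obstructed replicate 2 is the array with the high accessory gland values. The gap between the obstructed arrays had a median of 0.36 over the 35 genes and 0.21 over all genes, and the gap between the sham arrays 0.17 and 0.16.

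**Figure D1:**
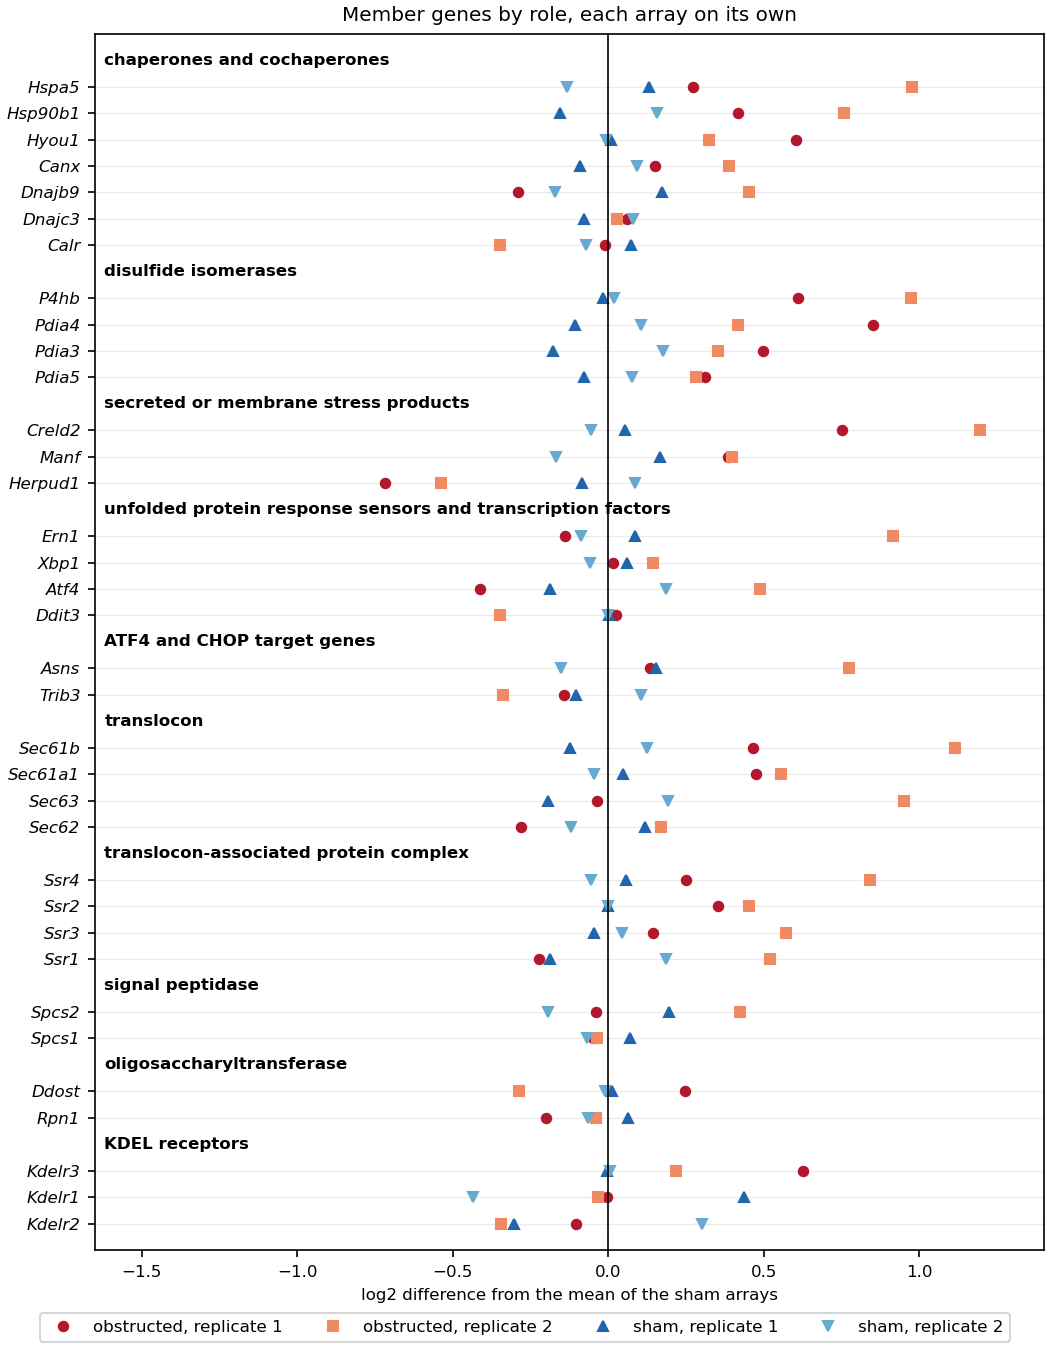
Log2 difference of each array from the mean of the sham arrays (horizontal axis) for the 35 genes, grouped by role, with red circles and orange squares for obstructed replicates 1 and 2 and blue triangles pointing up and down for sham replicates 1 and 2. The disulfide isomerases lie to the right of both sham arrays in both obstructed arrays, whereas Sec63, Ern1 and Asns do so only in obstructed replicate 2.

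The disulfide isomerases, which make and shuffle disulfide bonds in new proteins, were higher in both obstructed arrays. All 4 measured had a higher mean without overlap, as did 17.6% of all genes. Obstructed replicate 1 had a role median of 0.55 and obstructed replicate 2 one of 0.39. P4hb, a disulfide isomerase that is also the beta subunit of collagen prolyl 4-hydroxylase, read 12.73 and 13.09 in the obstructed arrays, against 12.11 and 12.14 in the sham arrays (probe 6110056). Both obstructed values lay well above the sham pair, which differed by 0.03. The difference of P4hb was 0.79 (SE 0.18, 95% interval 0.35 to 1.23), 1.73-fold, with a limma adjusted p of 0.334 over all genes. It was 0.61 in obstructed replicate 1 (limma adjusted p = 0.111 alone) and 0.97 in obstructed replicate 2 (0.00217 alone).

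Pdia4, an isomerase with an additional thioredoxin-like domain, read 9.89 and 9.46 in obstructed bladders, against 8.93 and 9.15 in sham bladders (probe 70100). Here obstructed replicate 1 was the higher array, and its difference of 0.85 was the largest that this array showed among the 35 genes. The difference of the means was 0.63 (SE 0.24, limma adjusted p = 0.585). Pdia3, the isomerase that works with calnexin and calreticulin on glycoproteins, read 11.89 and 11.75 in obstructed bladders, against 11.22 and 11.57 in sham bladders, a difference of 0.43 (SE 0.20). Pdia5 read 7.495 and 7.467 in obstructed bladders, against 7.11 and 7.26 in sham bladders, a difference of 0.30 (SE 0.17), and its dimmer probe differed by 0.22. The 4 isomerases thus differed by 0.30 to 0.79, and neither of the last 2 had an unadjusted p below 0.05 (0.0778 for Pdia3 and 0.127 for Pdia5 in limma).

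**Figure D2:**
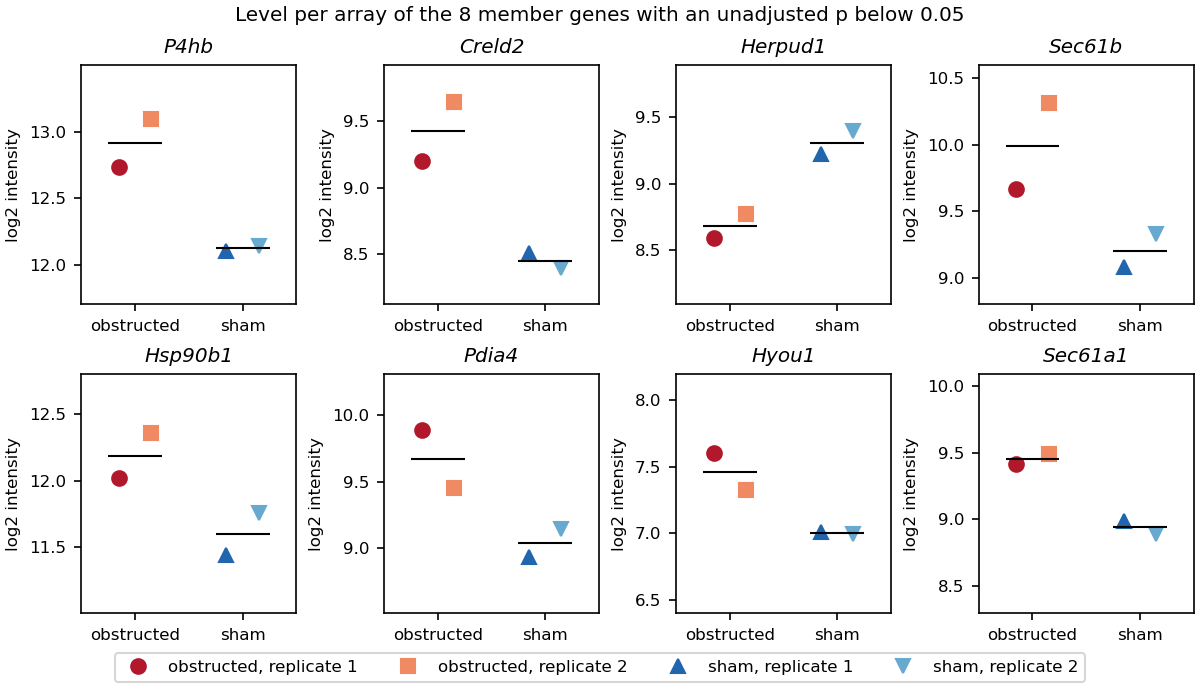
Log2 intensity per array of the 8 genes with an unadjusted limma p below 0.05, obstructed arrays on the left and sham arrays on the right of each panel, with a bar at each group mean and the same height of axis in all panels. In 7 genes both obstructed arrays lie above both sham arrays, and in Herpud1 both lie below.

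Of the 7 chaperones and cochaperones measured, 6 had a higher mean, against 46.9% of all genes. Without overlap, 4 were higher, against 17.6% of all genes. Hspa5 encodes BiP, the Hsp70 chaperone that binds unfolded chains and holds the stress sensors inactive. It read 11.57 and 12.27 in obstructed bladders, against 11.43 and 11.16 in sham bladders (probe 5130671). Obstructed replicate 1 lay just above the higher sham array and obstructed replicate 2 well above it. The difference of Hspa5 was 0.62 (SE 0.27, 95% interval -0.04 to 1.29; limma adjusted p = 0.642), with obstructed replicate 1 at 0.27 and obstructed replicate 2 at 0.98.

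Hsp90b1, the Hsp90 of the endoplasmic reticulum (GRP94), read 12.02 and 12.36 in obstructed bladders, against 11.45 and 11.76 in sham bladders (probe 5670576). Its difference was 0.59 (SE 0.21, 95% interval 0.08 to 1.10; limma adjusted p = 0.555). Hyou1, a large chaperone that releases nucleotide from BiP, read 7.60 and 7.32 in obstructed bladders, against 7.01 and 6.99 in sham bladders (probe 3060465), a difference of 0.46 (SE 0.18, 95% interval 0.03 to 0.89; limma adjusted p = 0.588). For Hsp90b1 obstructed replicate 2 was the higher array and for Hyou1 obstructed replicate 1, and both genes were free of overlap.

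The lectin chaperones hold sugar-bearing chains during folding. Canx, the membrane-bound calnexin, read 8.81 and 9.05 in obstructed bladders, against 8.57 and 8.76 in sham bladders, a difference of 0.27 (SE 0.21), with a dimmer probe at 0.12. Calr, the soluble calreticulin, read 5.744 and 5.405 in obstructed bladders, against 5.83 and 5.68 in sham bladders, close to the median of all probes, a difference of -0.18 (SE 0.16). Such dim values cannot be told from background, so that Calr cannot be set against Canx. The cochaperone Dnajc3 (p58IPK), which brings clients to BiP, was as dim, at 5.87 and 5.84 in obstructed bladders, against 5.73 and 5.89 in sham bladders, a difference of 0.04. Dnajb9 (ERdj4), a cochaperone that is a target of XBP1 in other cells, read 9.93 and 10.67 in obstructed bladders, against 10.39 and 10.05 in sham bladders, with 1 obstructed array below both sham arrays and the other above them. Of the 6 genes with an ERSE in the window shown above, Hspa5, Hsp90b1, Canx and Creld2 were without overlap and higher, as were 17.6% of all genes, and Calr and Dnajc3 were the dim pair. By the mean, Dnajc3 was also higher and Calr lower. Of the 12 other genes with an ERSE, the mean was higher in 6 and lower in 6. Derl3, Ero1b and Syvn1, which belong to other lists of the pathway, were among the 6 higher genes.

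Among the stress products, Creld2, an endoplasmic reticulum protein that is also secreted, showed the largest difference of all 35 genes. It read 9.20 and 9.65 in obstructed bladders, against 8.505 and 8.396 in sham bladders (probe 5670184). Its difference was 0.97 (SE 0.23, 95% interval 0.40 to 1.55), 1.96-fold, with a limma adjusted p of 0.377. It was 0.75 in obstructed replicate 1 (limma adjusted p = 0.121 alone) and 1.20 in obstructed replicate 2 (0.00316 alone). Manf, a secreted stress-induced factor that also binds BiP, read 8.14 and 8.15 in obstructed bladders, against 7.92 and 7.59 in sham bladders, a difference of 0.39 (SE 0.20).

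Herpud1, a membrane protein that helps assemble the degradation complex of the endoplasmic reticulum, stood opposite to Creld2 and Manf. It read 8.59 and 8.77 in obstructed bladders, against 9.22 and 9.39 in sham bladders (probe 7100440). Both obstructed arrays lay below both sham arrays by a similar amount, -0.72 and -0.54 from the sham mean in replicates 1 and 2. The difference of Herpud1 was -0.63 (SE 0.21, 95% interval -1.14 to -0.12), 1.55-fold lower, with a limma adjusted p of 0.528. Its window holds ERSE-II, as printed above, and of the 6 other genes with ERSE-II 3 had a higher mean, Krtcap2 at 0.52 among them, and 3 a lower one.

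The sensor and the transcription factors of the unfolded protein response overlapped between groups in all 4 genes measured, as did most genes of the array. Xbp1, whose messenger is spliced by IRE1 to give the active factor, read 12.40 and 12.53 in obstructed bladders, against 12.45 and 12.33 in sham bladders, a difference of 0.08 (SE 0.16, 95% interval -0.30 to 0.46). The array gives 1 value for Xbp1, and its splicing was not analysed here. Atf4, the transcription factor whose translation rises when PERK acts, read 7.41 and 8.31 in obstructed bladders, against 7.64 and 8.01 in sham bladders, a difference of 0.04 (SE 0.33). Its obstructed arrays enclosed the sham arrays.

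Ddit3, which encodes the cell death factor CHOP, read 7.56 and 7.18 in obstructed bladders, against 7.53 and 7.53 in sham bladders, a difference of -0.16 (SE 0.20, 95% interval -0.64 to 0.32). Ern1 read 8.61 and 9.67 in obstructed bladders, against 8.84 and 8.67 in sham bladders, a difference of 0.39 (SE 0.36). Obstructed replicate 1 lay below both sham arrays for Ern1 and obstructed replicate 2 well above both, with limma adjusted p-values of 0.865 and 0.0203 for these arrays alone, and a dimmer probe of Ern1 differed by 0.04. The 95% interval of each of the 4 genes ran from below to above 0.

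Of the ATF4 and CHOP target genes, Asns, asparagine synthetase, read 9.97 and 10.61 in obstructed bladders, against 9.99 and 9.68 in sham bladders. Only obstructed replicate 2 lay above both sham arrays, the difference was 0.45 (SE 0.28), and a dimmer probe differed by -0.02. Trib3, a pseudokinase induced by CHOP, read 5.50 and 5.30 in obstructed bladders, against 5.53 and 5.74 in sham bladders, all below the median of all probes. It was lower without overlap, as were 21.6% of all genes, with a difference of -0.24 (SE 0.14). Values this dim cannot be told from background.

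The translocon carries chains into the endoplasmic reticulum, and its pore subunit and beta subunit were higher without overlap, as were 17.6% of all genes. Sec61a1, which forms the pore, read 9.41 and 9.49 in obstructed bladders, against 8.99 and 8.89 in sham bladders (probe 3390437). The obstructed arrays were close together and above the sham arrays, a difference of 0.51 (SE 0.20, 95% interval 0.03 to 1.00; limma adjusted p = 0.595). Sec61b, the small beta subunit, read 9.67 and 10.32 in obstructed bladders, against 9.08 and 9.33 in sham bladders (probe 840113), a difference of 0.79 (SE 0.28, 95% interval 0.10 to 1.48; limma adjusted p = 0.555). Its other probe, nearly as bright, differed by 0.45.

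Sec62 and Sec63 assist chains that enter after translation. Sec63 read 9.03 and 10.01 in obstructed bladders, against 8.87 and 9.26 in sham bladders, so that obstructed replicate 1 lay between the sham arrays. The difference of Sec63 was 0.46 (SE 0.36), and its 3 other probes differed by 0.47, 0.13 and 0.22. Sec62 read 8.25 and 8.70 in obstructed bladders, against 8.65 and 8.41 in sham bladders, a difference of -0.06 (SE 0.24).

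The 4 subunits of the translocon-associated protein complex, which helps chains start through the pore, all had a higher mean, as did 46.9% of all genes. Without overlap, 3 were higher, against 17.6% of all genes. Ssr4, the delta subunit, read 12.41 and 13.003 in obstructed bladders, against 12.22 and 12.11 in sham bladders, a difference of 0.55 (SE 0.23) with a second bright probe at 0.52. Ssr2, the beta subunit, read 11.63 and 11.73 in obstructed bladders, against 11.28 in both sham bladders, a difference of 0.40 (SE 0.17). Ssr3, the gamma subunit, read 10.28 and 10.71 in obstructed bladders, against 10.09 and 10.18 in sham bladders, a difference of 0.36 (SE 0.23). In these 3 subunits obstructed replicate 2 was the higher array. Ssr1, the alpha subunit, overlapped between groups and differed by 0.15 (SE 0.30), with a dimmer probe at -0.22. The unadjusted limma p was 0.0533 for Ssr4 and 0.0593 for Ssr2.

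The members of signal peptidase and the oligosaccharyltransferase that belong to the 35 genes overlapped between groups. The signal peptidase subunits Spcs1 and Spcs2, which support removal of the signal peptide, differed by -0.04 (SE 0.18) and 0.19 (SE 0.26). The subunits Ddost and Rpn1 of the oligosaccharyltransferase, which attaches sugar chains, differed by -0.02 (SE 0.24) and -0.12 (SE 0.14). Ddost read 11.37 and 10.83 in obstructed bladders, against 11.13 and 11.11 in sham bladders. Rpn1 was dim, at 5.83 and 5.99 in obstructed bladders, against 6.09 and 5.96 in sham bladders, close to the median of all probes.

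KDEL receptors return escaped chaperones from the Golgi apparatus. Kdelr3 read 9.88 and 9.47 in obstructed bladders, against 9.25 and 9.26 in sham bladders, a difference of 0.42 (SE 0.23) without overlap, and its second probe, nearly as bright, differed by 0.33. Kdelr1 read 9.05 and 9.02 in obstructed bladders, against 9.48 and 8.61 in sham bladders, and Kdelr2 read 9.27 and 9.03, against 9.08 and 9.68. For these 2 receptors the sham arrays differed by more than the obstructed arrays did, and the differences were -0.02 (SE 0.32) and -0.22 (SE 0.27).

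**Figure D3:**
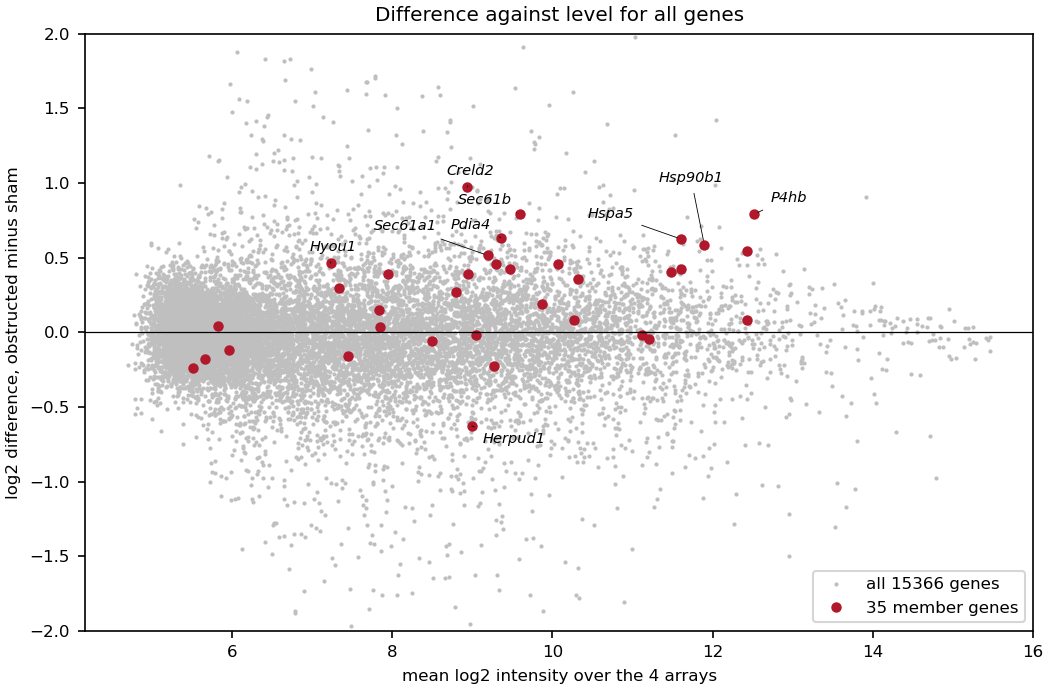
Log2 difference, obstructed minus sham (vertical axis), against mean log2 intensity over the 4 arrays for all 15366 genes in grey and the 35 genes in red, with 60 genes beyond 2 log2 units not drawn. The 35 genes lie between -0.63 for Herpud1 and 0.97 for Creld2, and 25 of them are above 0.

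Other genes of the pathway, 134 measured of 151 listed outside the 35, more often had a higher mean than a lower one. The mean was higher in 93 of the 134, or 69.4%, against 46.9% of all genes, and the median difference was 0.12, with obstructed replicate 1 at 0.13 and obstructed replicate 2 at 0.12. None passed limma over all genes, and an unadjusted p below 0.05 was found for 8 higher genes (5.97%, against 3.05% of all genes) and 2 lower genes (1.49%, against 5.09%). Without overlap, 46 were higher (34.3%, against 17.6% of all genes) and 12 lower (8.96%, against 21.6%). In the folding and redox list, 20 of 26 had a higher mean. Selenos, a selenoprotein of the degradation complex, read 10.60 and 11.28 in obstructed bladders, against 9.98 and 9.75 in sham bladders, a difference of 1.07 (SE 0.28, limma adjusted p = 0.425). The prolyl isomerases Fkbp11 and Fkbp2 differed by 1.08 (SE 0.34) and 0.55 (SE 0.21), and the lumenal protein Erp29 by 0.44 (SE 0.18).

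In translocation and glycosylation, 12 of 17 had a higher mean, against 46.9% of all genes. Krtcap2, a subunit of the oligosaccharyltransferase, read 12.76 and 12.87 in obstructed bladders, against 12.32 and 12.28 in sham bladders, a difference of 0.52 (SE 0.15, limma adjusted p = 0.465). Dad1, of the same enzyme, differed by 0.41 (SE 0.18) and Tusc3 by 0.25 (SE 0.13). The signal peptidase subunit Sec11c differed by 0.87 (SE 0.44), with obstructed replicate 1 at 0.17 and obstructed replicate 2 at 1.57. Without overlap, 7 of the 17 were higher (41.2%, against 17.6% of all genes) and 2 lower (11.8%, against 21.6%). Krtcap2 and Dad1 were free of overlap, but they were named for their small p. Of the other oligosaccharyltransferase subunits, Stt3a, Ddost and Rpn1 overlapped between groups. The dim values of Rpn1 cannot be told from background, so that its difference cannot be resolved.

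In degradation, 13 of 18 had a higher mean, against 46.9% of all genes. The differences were 0.41 (SE 0.13) for Derl3, 0.79 (SE 0.35) for Edem2, 0.42 (SE 0.21) for Vcp and 0.39 (SE 0.20) for Faf2. Derl3 was dim, at 6.05 and 5.94 in obstructed bladders, against 5.55 and 5.63, below the median of all probes, in sham bladders. Edem2, which helps select glycoproteins for destruction, differed by 0.28 for obstructed replicate 1 and by 1.29 for obstructed replicate 2. Among coats and cargo receptors of transport to and from the Golgi apparatus, 22 of 31 had a higher mean, against 46.9% of all genes. An unadjusted limma p below 0.05 was found for 0 of the 31, against 3.05% of all genes higher and 5.09% lower. The cargo protein Ergic1 differed by 0.49 (SE 0.20), the coat subunit Copz2 by 0.47, the exchange factor Preb by 0.57 and the coat subunit Sec23a by -0.39.

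The other genes of the unfolded protein and integrated stress responses had a median of 0.04 over 29 genes. The mean was higher in 20 of the 29, against 46.9% of all genes. The largest differences in this list ran in opposite directions. Stc2, a secreted glycoprotein induced by ATF4 in other cells, read 7.34 and 7.17 in obstructed bladders, against 8.18 and 8.36 in sham bladders, a difference of -1.02 (SE 0.19, limma adjusted p = 0.220). It passed limma with obstructed replicate 1 alone (adjusted p = 0.0344) and with obstructed replicate 2 alone (0.00385), fits that share the sham arrays. Nupr1, a small stress-induced nuclear protein, read 10.81 and 11.94 in obstructed bladders, against 9.75 and 10.22 in sham bladders, a difference of 1.39 (SE 0.40, limma adjusted p = 0.464). The amino acid transporter gene Slc7a5 differed by 0.58 (SE 0.23) and the protease gene Mbtps2, which helps activate ATF6, by -0.32 (SE 0.13).

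Genes that fold and modify collagen, a main cargo of this pathway in connective tissue, had medians on opposite sides of 0 in the obstructed arrays. The median over 13 genes stood at 0.25 for obstructed replicate 1 and at -0.38 for obstructed replicate 2, with 10 and 3 genes above the sham mean. Plod2, a collagen lysyl hydroxylase, differed by 0.42 (SE 0.20), Crtap by -0.44 (SE 0.35), the prolyl hydroxylase subunit P4ha1 by 0.28 (SE 0.26) and Plod1 by -0.34 (SE 0.33). P4ha1 lay at 0.58 and -0.03 in the obstructed arrays, whereas its partner P4hb lay at 0.61 and 0.97.

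**Figure D4:**
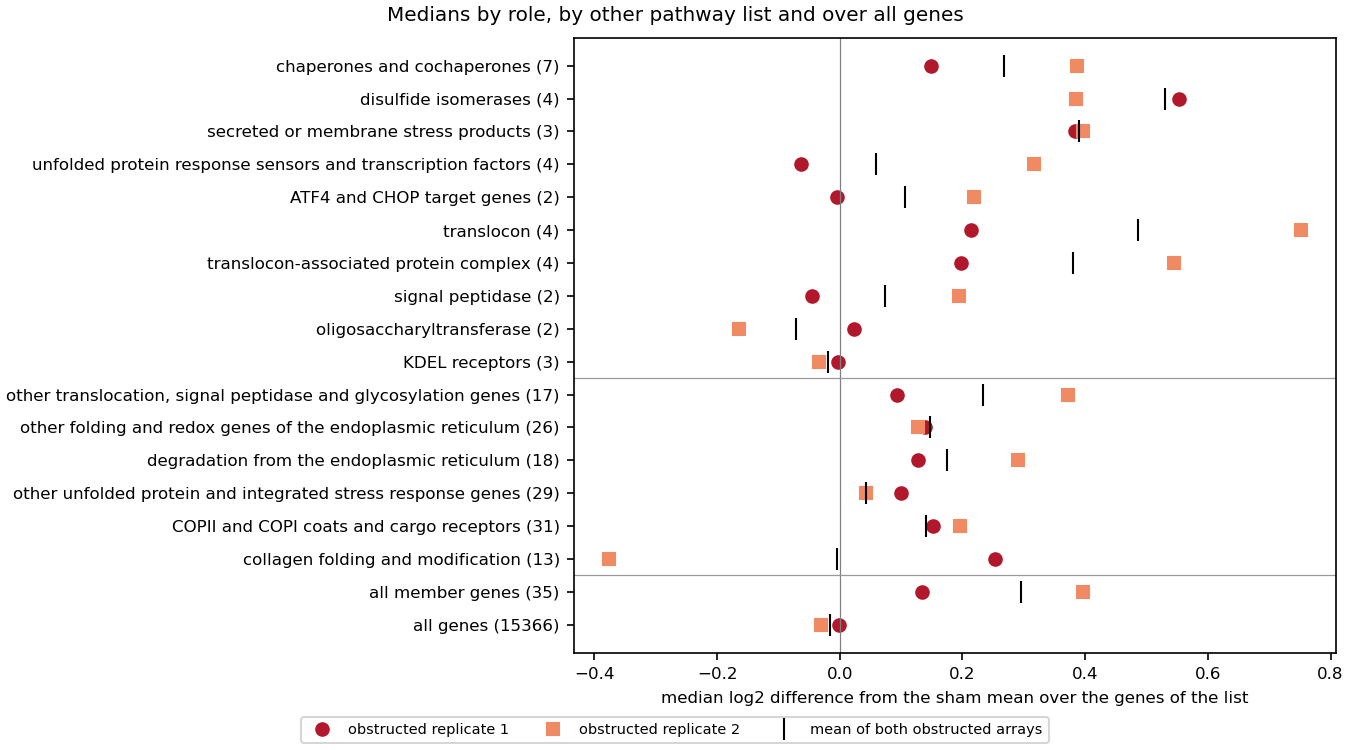
Median log2 difference from the sham mean (horizontal axis) over the genes of each role, of each other pathway list and of all genes, with the number of genes in brackets, for obstructed replicate 1 (circles), obstructed replicate 2 (squares) and the difference of the group means (bars). The medians of the stress products are 0.38 and 0.40, and those of collagen folding 0.25 and -0.38.

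Marker genes of other cell types also differed between the obstructed arrays, and their part in the results above was not tested. Over 10 smooth muscle markers obstructed replicate 1 had a median of -0.08 and obstructed replicate 2 one of -0.997, and their summed linear intensity was 121340 and 79611 in obstructed replicates 1 and 2, against 128850 and 155330 in sham replicates 1 and 2. Over 11 fibroblast markers the medians were 0.07 and -0.26, over 7 macrophage markers 0.27 and -0.75, over 7 endothelial markers 0.23 and -0.33 and over 9 urothelial markers -0.05 and 0.16. Plasma cells, which are rich in endoplasmic reticulum, had a median of 0.16 and 0.03 over 10 markers, of which 4 lay above the median of all probes on all 4 arrays and 3, Jchain among them, below it throughout. Of those markers Derl3 and Fkbp11 also belong to the pathway lists above. Adipocyte markers summed to 980 and 1192 linear units in obstructed replicates 1 and 2, against 2945 and 1795 in sham replicates 1 and 2. Of the 7 measured, 5 had a lower mean. Above the sham mean lay 0 in obstructed replicate 1 and 3 in obstructed replicate 2. Pparg, the brightest of them by mean, differed by 0.07 (SE 0.22). The fat cell hormone gene Adipoq read 5.84 and 6.17 in obstructed bladders, against 10.56 and 9.44 in sham bladders, a difference of -4.00 (SE 0.38, limma adjusted p = 0.0663), and the lipid droplet gene Cidec differed by -2.09 and the leptin gene Lep by -1.11. All 7 skeletal muscle markers had a lower mean, the creatine kinase gene Ckm by -1.43 (SE 0.37). The others differed by less, from -0.06 for Myod1 to -0.35 for Pvalb. Without overlap, 2 of the 7 were lower (28.6%, against 21.6% of all genes). The linear sum of the 35 genes was 49442 and 60203 in obstructed replicates 1 and 2, against 41758 and 41336 in sham replicates 1 and 2.

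**Figure D5:**
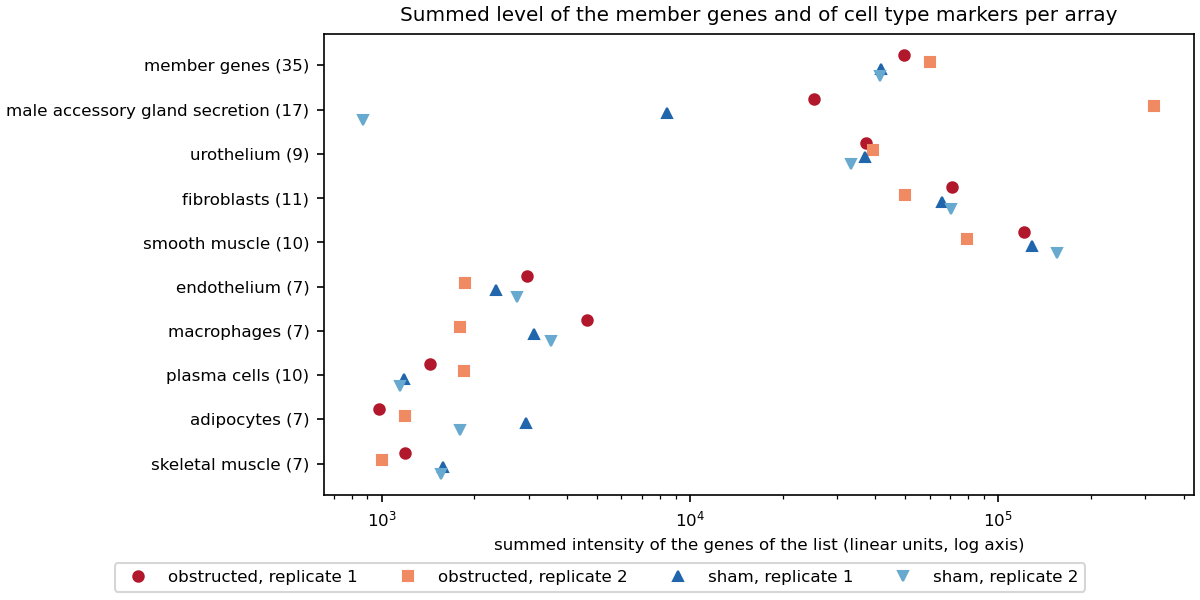
Summed linear intensity (horizontal log axis) per array of the 35 genes and of 9 lists of cell type markers, with the number of genes in brackets, obstructed arrays in red and orange and sham arrays in blue. Accessory gland genes span 874 to 321380, while the 35 genes span 41336 to 60203.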

How the data were processed

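Biotin-labelled cRNA of mouse bladder RNA was read on Illumina arrays, per the labels. The table that the authors deposited has 46657 probes in 4 columns. The values the authors deposited were read as log2 intensities because they run between 4.14 and 15.63, a scale that neither labels nor headers state. The sorted columns differed by at most 0.0252, the picture that quantile normalization leaves. How background was corrected is not stated, and without detection p-values a dim value cannot be told from background.

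The platform annotation gave 22380 probes 1 symbol and 24277 none. The brightest probe per gene was kept, which left 15366 genes. Obstructed was compared with sham over the whole table in limma 3.58.1 under R 4.3.3 (lmFit, then eBayes with an intensity trend), two-sided, with Benjamini-Hochberg adjustment over all genes and a threshold of 0.05. Standard errors rest on 6.04 degrees of freedom, and 2 arrays per group limit the precision. Intervals are 95% intervals of this fit. Each obstructed array was also fitted without the other. The fit was tested on simulated data. Motifs were searched in Python 3.11.15.

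The genes, lists and roles were chosen with earlier results of these data known. Every measured gene of the list is named, with values per array where the unadjusted p was below 0.05, where the groups did not overlap or where it encodes a sensor or transcription factor. Of the other pathway lists, the 4 genes with the smallest p are named, and of the marker lists bright genes. Genes named or given in full beyond this rule were chosen after their values were seen. Alternatives were other normalizations, a floor, a filter on dim genes, the mean of all probes, other variance models, a replicate block and each array left out.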

Additional observations from a re-analysis of the deposited data

How the results depend on the processing

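With all 4 arrays kept, quantile normalization, centring, a floor of 50, leaving out dim genes, other variance models and the replicate block each left the direction of every gene of the list that entered the fit as reported. Calr and Trib3 did not enter it without dim genes, which left 33. The mean of all probes turned Ssr1 to -0.0365. None of the 35 genes passed limma in these settings, in which their lowest adjusted p was 0.273 and between 5 and 9 of them had an unadjusted p below 0.05. Such an unadjusted p was found for 440 to 490 higher and 759 to 820 lower genes of all 15366. Without dim genes it was found for 335 higher and 639 lower genes of 10579. Over all genes limma called 8. It called 0 with the floor of 50 (with unadjusted p below 0.05 in 490 higher and 759 lower genes), 3 without dim genes, where fewer genes were tested, and 17 with a robust trend. With the floor or without dim genes, 1 gene of the list lay lower without overlap instead of 2, since Trib3 is dim. The replicate block called 1 gene over the array and 0 of the 35. Deviations of same-numbered arrays from their group means had a correlation of -0.0165. With 2 arrays a group this is 1 comparison, which cannot settle whether the numbers pair the arrays. The cause of the other shifts was not tested.

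Leaving out 1 array gave 0 to 1299 called genes and 0 to 8 called genes of the list. Both counts were highest without obstructed replicate 1, the array nearer to sham in the list, and 323 genes were called without obstructed replicate 2. Without sham replicate 1 limma called 0 (with unadjusted p below 0.05 in 215 higher and 373 lower genes), and without sham replicate 2 also 0 (202 higher and 388 lower). The median of the list was 0.40 without obstructed replicate 1 and 0.13 without obstructed replicate 2. Genes of the list without overlap numbered 18 to 25 higher, where 27.8% to 36.4% of all genes were, and 4 to 8 lower, where 32.4% to 41.7% of all genes were, since fewer arrays make overlap rarer. The direction of 13 genes turned when 1 array was left out, with ranges of -0.29 to 0.45 for Dnajb9, -0.0348 to 0.12 for Dnajc3, -0.14 to 0.92 for Ern1, -0.41 to 0.49 for Atf4 and -0.35 to 0.0256 for Ddit3. The ranges were -0.28 to 0.17 for Sec62, -0.0356 to 0.95 for Sec63, -0.22 to 0.52 for Ssr1, -0.11 to 0.0273 for Spcs1 and -0.0405 to 0.42 for Spcs2. They were -0.29 to 0.25 for Ddost, -0.45 to 0.42 for Kdelr1 and -0.53 to 0.0772 for Kdelr2. The other 22 genes kept their direction in the alternatives they entered, 12 for 20 of them and 11 for Calr and Trib3. With 2 arrays a group and no detection p-values, neither small differences nor differences of dim genes can be resolved.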
